A study of Homo sapiens with 18 samples.

Results

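ASS1, ASL and SLC7A1 are the genes of arginine supply described here: the pair of enzymes that make arginine from citrulline, and a main importer of arginine. They are 3 of the 15258 genes with values, found by mapping the Ensembl identifiers of the expression table to gene symbols. They were chosen from measured values, because ASS1 was nearly absent from the control line and present in both knockout lines. Differences between a knockout line and control are therefore given for these 3 genes as a description, without a test. All 3 genes were among the 14512 that were tested, those with a mean of at least 1 TPM (an abundance corrected for gene length and for sequencing depth).

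The study profiled MEL624, an established human melanoma line, in PCIF1 knockout line KO2, PCIF1 knockout line KO1 and a control that is wild type and carries a random sgRNA. PCIF1 is the enzyme that methylates an adenosine next to the mRNA cap. Each line had 3 libraries of input mRNA, lettered A to C and described as biological replicates, from cells grown in DMEM with 10% FBS. The series holds 18 libraries, of which the 9 m6A-immunoprecipitated ones were not analysed here. Each knockout line is 1 clone and the control is 1 line, so differences between lines cannot be told apart from loss of PCIF1. A p-value here reflects only how far libraries within a line scatter.

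Arginine synthesis in most cells runs through 2 steps of the urea cycle. ASS1, argininosuccinate synthase, joins citrulline and aspartate into argininosuccinate, and ASL, argininosuccinate lyase, splits this into arginine and fumarate. SLC7A1, also called CAT1, carries arginine, lysine and ornithine across the plasma membrane. Many melanomas express little ASS1 and then depend on arginine from outside, which is the basis of arginine-depleting treatments.

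The sequences around the annotated starts are shown because PCIF1 acts on transcripts that begin with adenosine, and because the difference in ASS1 is one of mRNA level. They are RefSeq promoter sequences on GRCh38.p14, in lower case, with the annotated start base in capitals. In order, they cover chr9:130444692-130444721 (plus strand), chr9:130444946-130444975 (plus strand), chr7:66075804-66075833 (plus strand) and chr13:29595674-29595703 (minus strand).
ASS1 upstream start: gccgcctgcgcccccGccggcgcgcccctg
ASS1 downstream start: ggcacccctgccagtCctgctctgccgcct
ASL start: agaaaagccctggccAgtggcgggcgcgac
SLC7A1 start: gggcgggggccgggcGcactgctgatgaaa
Of the 3 genes, only ASL has A at the RefSeq start, a base found at 44.4% of the 34943 annotated starts in the promoter table. In GENCODE 44, 1 of 10 annotated ASS1 transcripts begins with A, 7 of 18 ASL transcripts and 1 of 3 SLC7A1 transcripts. Annotated starts need not be those used in MEL624 cells.

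The promoter at the downstream ASS1 start, chr9:130444711-130444970 on the plus strand, runs from 250 bases before the start and is shown for its E-box, a site bound by MYC and related factors. Capitals mark the E-box CACGTG, whose first base lies at -71 from the start, and GC boxes (GGGCGG or its reverse complement CCGCCC) at -157 and -99, with the start base counted as 0.
ASS1 promoter: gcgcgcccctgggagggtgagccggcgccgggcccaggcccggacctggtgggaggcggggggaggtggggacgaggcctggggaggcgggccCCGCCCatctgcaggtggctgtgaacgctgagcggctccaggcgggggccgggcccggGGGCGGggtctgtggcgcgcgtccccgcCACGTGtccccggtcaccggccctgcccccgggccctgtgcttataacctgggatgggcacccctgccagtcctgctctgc
Both motifs were searched on both strands of the 300 bases held for each start. The E-box was in 7.2% and the GC box in 44.9% of the windows in the table. The windows of the upstream ASS1 start, ASL and SLC7A1 held 2, 4 and 6 GC boxes, some of them overlapping in SLC7A1, and no E-box.

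Sequencing depth ranged from 7848089 to 11393206 reads on genes per library. PCIF1 (ENSG00000100982) itself averaged 60.3 ± 3.86 TPM in KO2, 24.0 ± 1.77 TPM in KO1 and 57.6 ± 3.84 TPM in control (SD, n = 3 each). Its log2 difference from control was 0.07 in KO2 and -1.26 in KO1, so the mRNA of the targeted gene separated KO1 from control and not KO2. The edits were not stated, and loss of the protein in either clone was not analysed here. Of 12 melanocyte and melanoma marker genes 4 had a value, with a summed level of 237 to 252 TPM in KO2, 257 to 263 TPM in KO1 and 187 to 191 TPM in control libraries. Its members did not move as one: PRAME was at 111 to 113 TPM in KO2, 112 to 119 TPM in KO1 and 63.0 to 65.8 TPM in control. MITF, a master regulator of melanocytes, was at 47.5 to 52.0 TPM in KO2, 24.3 to 29.1 TPM in KO1 and 36.0 to 38.3 TPM in control, and CSPG4 at 70.7 to 87.3 TPM in KO2, 111 to 119 TPM in KO1 and 83.5 to 86.5 TPM in control. The other 8, among them SOX10 and the pigment genes PMEL, MLANA, TYR, TYRP1 and DCT, had no value used here. Of 13 markers of epithelial, stromal, blood and endothelial cells 5 (KRT18, CD68, KRT8, LUM and COL1A1) had a value, and these summed to 989 to 1063 TPM in KO2, 1083 to 1119 TPM in KO1 and 1247 to 1275 TPM in control. KRT18 made up most of the sum, and CD68 was at 134 to 143 TPM in KO2, 129 to 139 TPM in KO1 and 179.8 to 192 TPM in control. These markers did not move as one either. KRT8 overlapped between the lines, at 90.4 to 98.9 TPM in KO2, 84.7 to 94.5 TPM in KO1 and 89.1 to 95.2 TPM in control. LUM, a scarce mRNA, was at 0.787 to 1.43 TPM in KO2, 1.89 to 2.67 TPM in KO1 and 0.0322 to 0.135 TPM in control. The part of these marker differences in the arginine genes was not tested.

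ASS1 (ENSG00000130707, chromosome 9, 130444961 to 130501274, plus strand, hg38) was expressed in every library of both knockout clones and was close to absent from control. It stood at 15.9, 12.7 and 14.1 TPM in KO2 libraries A to C, at 12.5, 14.6 and 12.6 TPM in KO1, and at 0.0322, 0.168 and 0.661 TPM in control. No control library came near the lowest knockout library, which is the pattern ASS1 was chosen for. The reads behind these levels numbered 122, 85 and 122 in KO2, 95, 129 and 99 in KO1, and 0, 1 and 5 in control. The value of control library A is the floor of a gene without reads, and a count of 0 allows up to 3 reads. In a bulk measurement, fewer expressing cells and less RNA per cell cannot be told apart.

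Pooled over the libraries of a line, ASS1 had 329 reads in KO2, 323 reads in KO1 and 6 reads in control. The read rate was 59.1-fold higher in KO2 than in control (95% counting interval 26.8 to 162) and 53.7-fold higher in KO1 than in control (24.4 to 148). These intervals cover counting error only, and not the scatter between the control libraries. ASS1 was chosen for this difference, so they are no test of it. On the log2 TPM scale the difference was 6.53 between KO2 and control and 6.43 between KO1 and control (SE 0.812 each). The size of a log2 difference from so low a level depends on the small prior count in the deposited values. With log2(TPM + 1) in place of it the differences were 3.59 for KO2 and 3.49 for KO1, and with log2(TPM + 5) they were 1.86 and 1.78. The control library with most ASS1 reads also weighs on it: without control C the differences were 7.59 for KO2 and 7.48 for KO1.

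Placed among all genes, ASS1 was near the middle of the range in the clones and at its bottom in control. Its level exceeded that of 45.2% of genes in KO2, 42.9% in KO1 and 1.3% in control.

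Between the clones, the ASS1 level was close in value, though the interval is wide when the scattered control values enter the error. It averaged 14.2 ± 1.60 TPM in KO2 and 13.2 ± 1.20 TPM in KO1 (SD, n = 3 each), and the libraries of the clones overlapped. KO2 minus KO1 was 0.10 on the log2 scale (95% confidence interval -1.71 to 1.91, limma adjusted p = 0.943). In a fit of the clones alone the interval was -0.16 to 0.36 (limma adjusted p = 0.543). By reads, the ratio of KO2 to KO1 was 1.10 (95% counting interval 0.940 to 1.29).

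ASS1 has many processed pseudogene copies in the human genome. GENCODE 44 annotates 14, none of which had a value used here, and 11 of them share stretches with the mRNA. Of the 1483 windows of 50 bases in its canonical transcript, 176 (11.9%) also occur in a copy and cannot be assigned by sequence alone. How the authors' counting treated such reads was not stated.

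**Figure D1:**
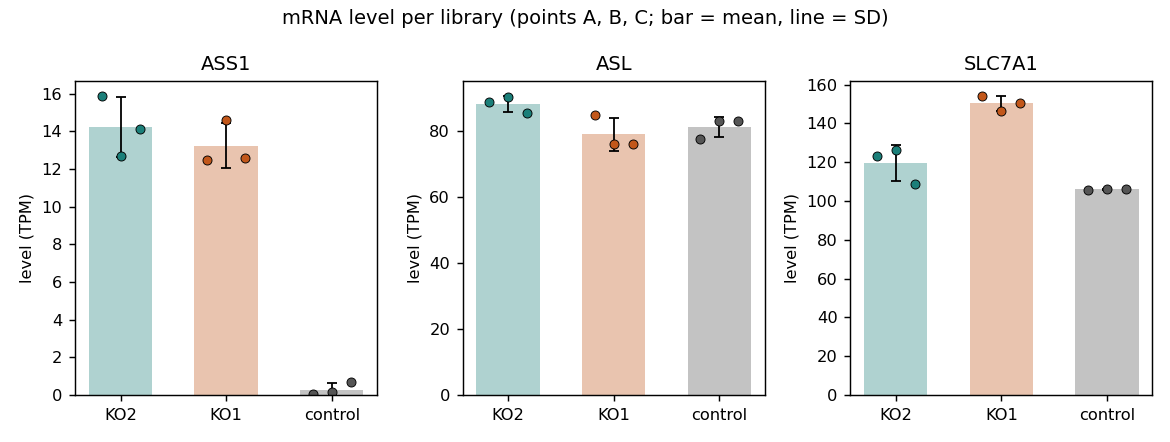
Level (TPM, linear scale) of ASS1, ASL and SLC7A1, with KO2 left, KO1 in the middle and control right; points are libraries A to C, bars the mean and lines the SD. ASS1 lies between 12.5 and 15.9 TPM in the 6 knockout libraries and at no more than 0.661 TPM in control, while ASL lies between 76.3 and 90.4 TPM and SLC7A1 between 105.9 and 154 TPM over all lines.

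ASL (ENSG00000126522, chromosome 7, 66075800 to 66094697, plus strand), which completes the synthesis of arginine, was well expressed in all 3 lines. Its level was 88.9, 90.4 and 85.5 TPM in KO2, 84.9, 76.3 and 76.3 TPM in KO1, and 77.8, 83.1 and 83.0 TPM in control. KO2 had the highest mean, while the libraries of KO1 and control overlapped. The log2 difference from control was 0.12 in KO2 and -0.04 in KO1 (SE 0.0525 each). ASL ranked above 86.6% of genes in KO2, 84.7% in KO1 and 85.4% in control. The control libraries thus held much ASL mRNA and almost no ASS1 mRNA.

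Between the clones, ASL and SLC7A1 passed the test and ASS1 did not, so 2 of the 3 genes were called, where 28.7% of all tested genes were. ASL averaged 88.3 ± 2.47 TPM in KO2 and 79.2 ± 5.0 TPM in KO1 (SD, n = 3 each). KO2 minus KO1 was 0.16 on the log2 scale (95% confidence interval 0.04 to 0.28, limma adjusted p = 0.0465). This call stands at the threshold and was lost on leaving out any 1 of 7 of the 9 libraries (control B, control C, KO1 B, KO1 C or any KO2 library; limma adjusted p between 0.0513 and 0.152). It was also lost with the replicate letter as a block (limma adjusted p = 0.086). Some ASL reads are uncertain, since a protein-coding locus on the same strand, ENSG00000249319, overlaps it by 6937 bases.

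The ratio of the enzymes shows how far ASS1 trailed ASL. ASS1 divided by ASL, both in TPM, was 0.161 ± 0.0194 in KO2, 0.168 ± 0.0224 in KO1 and 0.00347 ± 0.00397 in control (SD, n = 3 each). Even in the clones, ASS1 mRNA was less abundant per length than ASL mRNA.

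SLC7A1 (ENSG00000139514, chromosome 13, 29509414 to 29595688, minus strand), the arginine importer, was most abundant in KO1. Its level was 123, 126 and 109 TPM in KO2, 154, 146 and 151 TPM in KO1, and 105.9 TPM in each of the control libraries. On average KO2 lay between KO1 and control. The log2 difference from control was 0.17 in KO2 and 0.50 in KO1 (SE 0.0532 each), a change in level of 12.5% and 41.9%. KO2 minus KO1 was -0.33 (95% confidence interval -0.45 to -0.22, limma adjusted p = 0.00138), a call kept with each of the 9 libraries left out in turn. SLC7A1 mRNA averaged higher in both clones than in control.

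SLC7A1 has a long mRNA, longer than 80.0% of tested genes, and long genes were slightly higher in KO1. The median log2 difference between KO1 and control was 0.07 over the 3016 tested genes of like length and 0.04 over all tested genes. SLC7A1 lay above 93.0% of those of like length. With the length trend of each library subtracted, which was added once the data had been seen, its difference was 0.44 between KO1 and control.

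Other arginine transporters did not share one pattern. SLC7A2, a further cationic amino acid transporter, had 21.9, 20.1 and 21.1 TPM in KO2, 14.5, 14.6 and 15.1 TPM in KO1, and 16.9, 19.7 and 18.2 TPM in control. It fell in KO1 (log2 difference -0.31, limma adjusted p = 0.0096) and its difference was 0.21 in KO2 (limma adjusted p = 0.0574, 0.0371 without control B and 0.0264 by limma-voom). KO2 minus KO1 was 0.51 (limma adjusted p = 0.000733), opposite in sign to SLC7A1. The ratio of SLC7A1 to SLC7A2, both in TPM, was 5.68 ± 0.565 in KO2, 10.2 ± 0.360 in KO1 and 5.82 ± 0.445 in control (SD, n = 3 each).

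SLC7A6 and SLC3A2 encode the light and the shared heavy chain of an exchanger that exports arginine for neutral amino acids. SLC7A6 was at 32.2, 31.2 and 31.3 TPM in KO2, 39.5, 42.9 and 43.1 TPM in KO1, and 31.3, 28.9 and 30.5 TPM in control. It rose in KO1 (log2 difference 0.47, limma adjusted p = 0.000178), with a difference of 0.06 in KO2 (limma adjusted p = 0.428). KO2 was below KO1 by a log2 difference of -0.41 (limma adjusted p = 0.000561). SLC3A2 followed the same order, at 198 TPM on average in KO2, 228 TPM in KO1 and 188 TPM in control, and rose in KO1 (log2 difference 0.28, limma adjusted p = 0.0021). Its log2 difference between KO2 and KO1 was -0.20 (limma adjusted p = 0.0138), a call lost without KO1 C (0.0527).

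CASTOR1, the cytosolic arginine sensor that restrains mTORC1 when arginine is low, was a scarce mRNA that fell in both clones. It stood at 2.20, 1.69 and 2.08 TPM in KO2, 2.80, 2.80 and 2.15 TPM in KO1, and 4.41, 3.83 and 4.23 TPM in control. The log2 difference was -1.07 in KO2 and -0.69 in KO1 (limma adjusted p = 0.00117 and 0.0119). SLC25A29, a mitochondrial carrier of basic amino acids, averaged 9.98 TPM in KO2, 11.7 TPM in KO1 and 12.1 TPM in control. Its call in KO2 (log2 difference -0.28, limma adjusted p = 0.0191) was lost without control B (0.0756), control C (0.0502) or KO2 B (0.0563). Of the 7 tested genes of transport and sensing, 2 fell and none rose in KO2, and 2 rose and 2 fell in KO1. Together 28.6% were called in KO2 and 57.1% in KO1, where 30.4% and 34.3% of all tested genes were. Without control B, control C or KO2 B, 1 fell in KO2. Their median log2 difference was 0.06 in KO2 and -0.05 in KO1, where all tested genes had medians of 0.01 and 0.04.

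**Figure D2:**
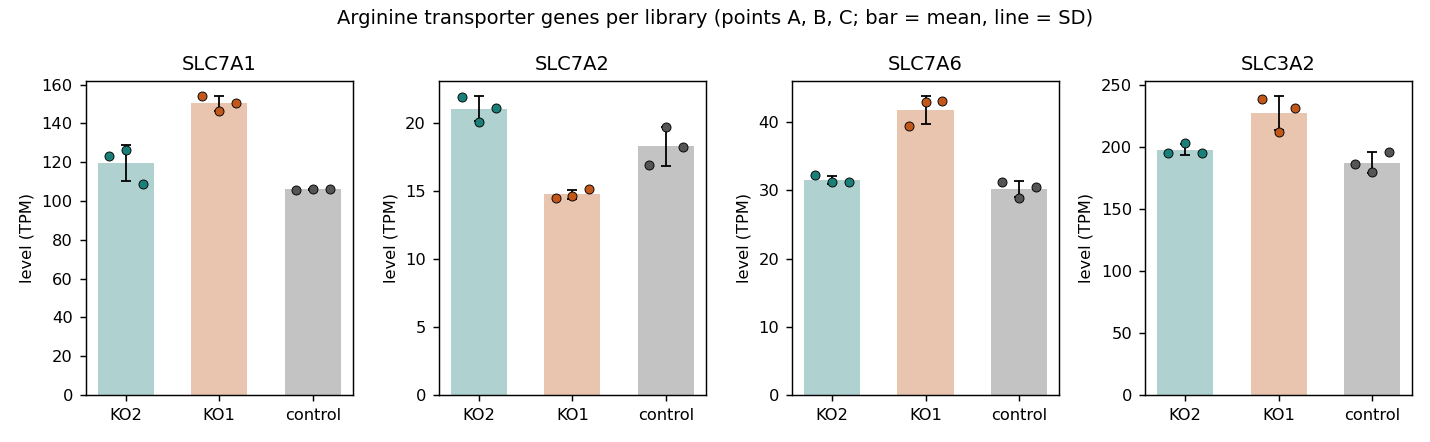
Level (TPM) of 4 arginine transporter genes, with KO2 left, KO1 in the middle and control right; points are libraries A to C, bars the mean and lines the SD. The means of SLC7A1, SLC7A6 and SLC3A2 are highest in KO1, and that of SLC7A2 is lowest in KO1.

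Genes around the 3 were followed through 6 lists that held 76 further genes, of which 57 were tested. In KO2, 15 rose and 15 fell against control, together 52.6%, where 30.4% of all tested genes were called (15.6% higher, 14.8% lower). In KO1, 9 rose and 20 fell, together 50.9%, where 34.3% of all tested genes were called (20.2% higher, 14.1% lower). Their median log2 difference was 0.04 in KO2 and -0.06 in KO1. Both comparisons share the control libraries, and the lists were chosen with earlier results of these data known. The excess over all tested genes is therefore not an independent result. With each library left out in turn, 11 to 15 list genes rose and 10 to 15 fell in KO2. In KO1, 6 to 10 list genes rose and 18 to 21 fell. Between the clones 16 were higher and 9 lower in KO2 than in KO1, together 43.9%, where 28.7% of all tested genes were called (11.8% higher, 16.9% lower). Median centring of the libraries left 5 of them lower and leaving out KO1 C left 4. Over all tested genes called between the clones, 41.1% were higher in KO2 as deposited and 55.5% after median centring. For KO1 against control the share was 58.9% as deposited and 49.7% after centring.

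Among the urea cycle genes other than ASS1 and ASL, none rose against control. CPS1, which makes carbamoyl phosphate in mitochondria, was at 4.38, 3.50 and 3.50 TPM in KO2, 3.23, 3.78 and 3.74 TPM in KO1, and 8.23, 8.51 and 7.20 TPM in control. It fell in KO2 (log2 difference -1.08, limma adjusted p = 0.000264) and in KO1 (-1.15, limma adjusted p = 0.000195). SLC25A15, the mitochondrial ornithine carrier, also fell, with log2 differences of -0.33 in KO2 and -0.30 in KO1 (limma adjusted p = 0.00186 and 0.00329). ARG2, the mitochondrial arginase that degrades arginine to ornithine and urea, passed the test in KO1, with a log2 difference of -0.52 (limma adjusted p = 0.0055), and not in KO2, with one of 0.01 (limma adjusted p = 0.942). It averaged 29.6 ± 3.62 TPM in KO2, 20.4 ± 2.78 TPM in KO1 and 29.1 ± 0.918 TPM in control (SD, n = 3 each), and KO2 minus KO1 was 0.54 (limma adjusted p = 0.0058). Of the 4 tested genes, 2 fell in KO2 and 3 in KO1, with medians of -0.16 and -0.41. Of all tested genes, 14.8% fell and 15.6% rose in KO2, and 14.1% fell and 20.2% rose in KO1. At such shares, none rising among 4 genes is not unusual.

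Of the 7 tested genes of a list of arginine use, which also holds genes of creatine, methylarginine and antizyme function that do not themselves consume arginine, 3 fell and 2 rose in KO2, and 4 fell and 1 rose in KO1, with medians of 0.06 and -0.24. GAMT, the methyltransferase of creatine synthesis, had 57.8 TPM in KO2, 57.9 TPM in KO1 and 81.0 TPM in control on average. Its log2 difference was -0.49 in each clone (limma adjusted p = 0.000189 in KO2 and 0.000221 in KO1). DDAH2, a relative of the enzyme that hydrolyses methylarginines, fell by 1.05 in KO2 and by 0.63 in KO1 on the log2 scale. AZIN2, an antizyme inhibitor, fell by 0.85 in KO2 and by 0.81 in KO1. ATE1, which adds arginine to proteins, averaged 52.2 TPM in KO2, 37.2 TPM in KO1 and 43.8 TPM in control. It rose in KO2 (log2 difference 0.25, limma adjusted p = 0.00517) and fell in KO1 (-0.24, limma adjusted p = 0.00733), and KO2 minus KO1 was 0.49 (limma adjusted p = 0.000144). Of the genes of this list, 1 rather than 2 rose in KO2 without control B, control C, KO2 A, KO2 C or any KO1 library. In each clone 71.4% of the list was called, where 30.4% of all tested genes were called in KO2 and 34.3% in KO1.

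Among genes of ornithine, proline and polyamines, SMOX, the spermine oxidase, had the lowest log2 difference in both clones. SMOX was at 32.6, 35.9 and 36.2 TPM in KO2, 40.6, 39.4 and 41.0 TPM in KO1, and 84.2, 89.4 and 94.7 TPM in control. Its log2 difference was -1.36 in KO2 and -1.15 in KO1 (limma adjusted p = 2.09e-07 and 6.71e-07). KO2 minus KO1 was -0.21, a call lost without KO1 A, KO1 C or KO2 A (limma adjusted p between 0.0594 and 0.0792), with median centring (0.0768) and by limma-voom (0.0909). SRM, spermidine synthase, rose by 0.23 in KO2 and by 0.32 in KO1 on the log2 scale. AZIN1, which protects ornithine decarboxylase, had differences of 0.21 in KO2 and 0.32 in KO1. Its call in KO2 (limma adjusted p = 0.026) was lost without control B, control C, KO2 A or KO2 C (0.0817 to 0.0938) and without a variance trend (0.0596). ALDH18A1, which starts proline and ornithine synthesis from glutamate, averaged 283 TPM in KO2, 216 TPM in KO1 and 200 TPM in control. It rose by 0.50 in KO2 and by 0.11 in KO1 on the log2 scale, the smaller call (limma adjusted p = 0.0153) being lost without KO1 C (0.0531), with median centring (0.0962), without a variance trend (0.0668) and by limma-voom, where the difference was 0.06 (0.259).

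ODC1, ornithine decarboxylase, the entry to polyamine synthesis, was named after its values were seen. It was at 78.2, 80.9 and 83.4 TPM in KO2, 42.2, 42.6 and 40.6 TPM in KO1, and 66.7, 68.4 and 66.6 TPM in control. It rose in KO2 (log2 difference 0.27, limma adjusted p = 0.00105) and fell in KO1 (-0.69, limma adjusted p = 2.38e-06). Of the 14 tested genes of this list, 5 rose and 4 fell in KO2, and 3 rose and 5 fell in KO1. Together 64.3% were called in KO2 and 57.1% in KO1, where 30.4% and 34.3% of all tested genes were. The 4 that fell in KO2 became 2 without control B or without KO2 A. The median was 0.03 in KO2 and -0.02 in KO1.

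Aspartate is consumed by ASS1, and fumarate is released by ASL. Of 15 tested genes around these metabolites, 5 rose and 3 fell in KO2, and 3 rose and 3 fell in KO1. The 3 that rose in KO1 became 1 without KO1 A or KO1 C. Together 53.3% were called in KO2 and 40.0% in KO1, where 30.4% and 34.3% of all tested genes were. The median of the 15 was 0.04 in KO2 and -0.04 in KO1. ASNS, asparagine synthetase, which consumes aspartate, was at 233, 240 and 262 TPM in KO2, 138, 162 and 147 TPM in KO1, and 170, 172 and 164 TPM in control. It rose in KO2 (log2 difference 0.54, limma adjusted p = 0.000135). In KO1 the difference was -0.18 (limma adjusted p = 0.0467), a call lost on leaving out any library other than KO1 B or KO2 C, with the replicate block (0.0556) and without a variance trend (0.0957). SLC1A3, a glutamate and aspartate importer, averaged 6.61 TPM in KO2, 1.12 TPM in KO1 and 4.13 TPM in control. It fell in KO1 (log2 difference -1.90, limma adjusted p = 5.07e-05), and its difference of 0.68 in KO2 lost its call without control A, control C or KO2 A (limma adjusted p between 0.0501 and 0.0731).

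ADSS1, which joins aspartate to inosine monophosphate, was a low mRNA that was higher in both clones. Its reads were 26, 21 and 28 in KO2, 52, 40 and 51 in KO1, and 6, 3 and 8 in control. The log2 difference was 2.30 in KO2 and 3.15 in KO1 (limma adjusted p = 0.000425 and 6.95e-05). ADSS1 averaged 1.73 TPM in KO2, 3.15 TPM in KO1 and 0.373 TPM in control. It thus met the filter of a mean of 1 TPM only through the clones where it is high, which limits these p-values as support. SLC25A13, the mitochondrial carrier that exports aspartate, averaged 78.8 TPM in KO2, 75.5 TPM in KO1 and 68.2 TPM in control. It rose by 0.21 in KO2 and by 0.15 in KO1 on the log2 scale, the KO1 call (limma adjusted p = 0.0206) being lost without control C or any KO1 library (0.0528 to 0.0725), with median centring (0.0632) and by limma-voom, where the difference was 0.10 (0.161).

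The 10 reported transcriptional regulators of ASS1 had a median log2 difference of 0.05 in KO2 and -0.06 in KO1. MYC, reported to act at the E-box shown above, had 86.8 TPM in KO2, 77.7 TPM in KO1 and 79.4 TPM in control and passed the test in neither clone (limma adjusted p = 0.139 and 0.733). HIF1A, reported to repress ASS1 at that site, averaged 211 TPM in KO2, 203 TPM in KO1 and 238 TPM in control. It fell in KO1 (log2 difference -0.23, limma adjusted p = 0.00825). In KO2 its difference of -0.17 (limma adjusted p = 0.0347) lost its call without control A, control B or any KO2 library (0.0562 to 0.117), without a variance trend (0.0839) and in a fit of the compared lines alone (0.0541). BHLHE40, a further E-box binding repressor, rose in KO2 (log2 difference 0.59, limma adjusted p = 0.002), with a difference of 0.05 in KO1 (limma adjusted p = 0.731).

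PPARG, a nuclear receptor, and ATF4, the effector of amino acid shortage, were lower in KO1 and higher in KO2. PPARG had log2 differences of 0.25 in KO2 and -0.40 in KO1, and ATF4 of 0.13 in KO2 and -0.15 in KO1. The KO2 call of PPARG was lost without control B, control C or KO2 A (limma adjusted p between 0.0596 and 0.062), and that of ATF4 without control A, control B or KO2 C (0.0664 to 0.0777), without a variance trend (0.0859) and with the length trend subtracted (0.0593). Of these regulators, 3 rose and 1 fell in KO2, and 3 fell and none rose in KO1. These are 4 and 3 of the 10, near the 30.4% and 34.3% of all tested genes. Without control B, 1 of them rose in KO2.

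**Figure D3:**
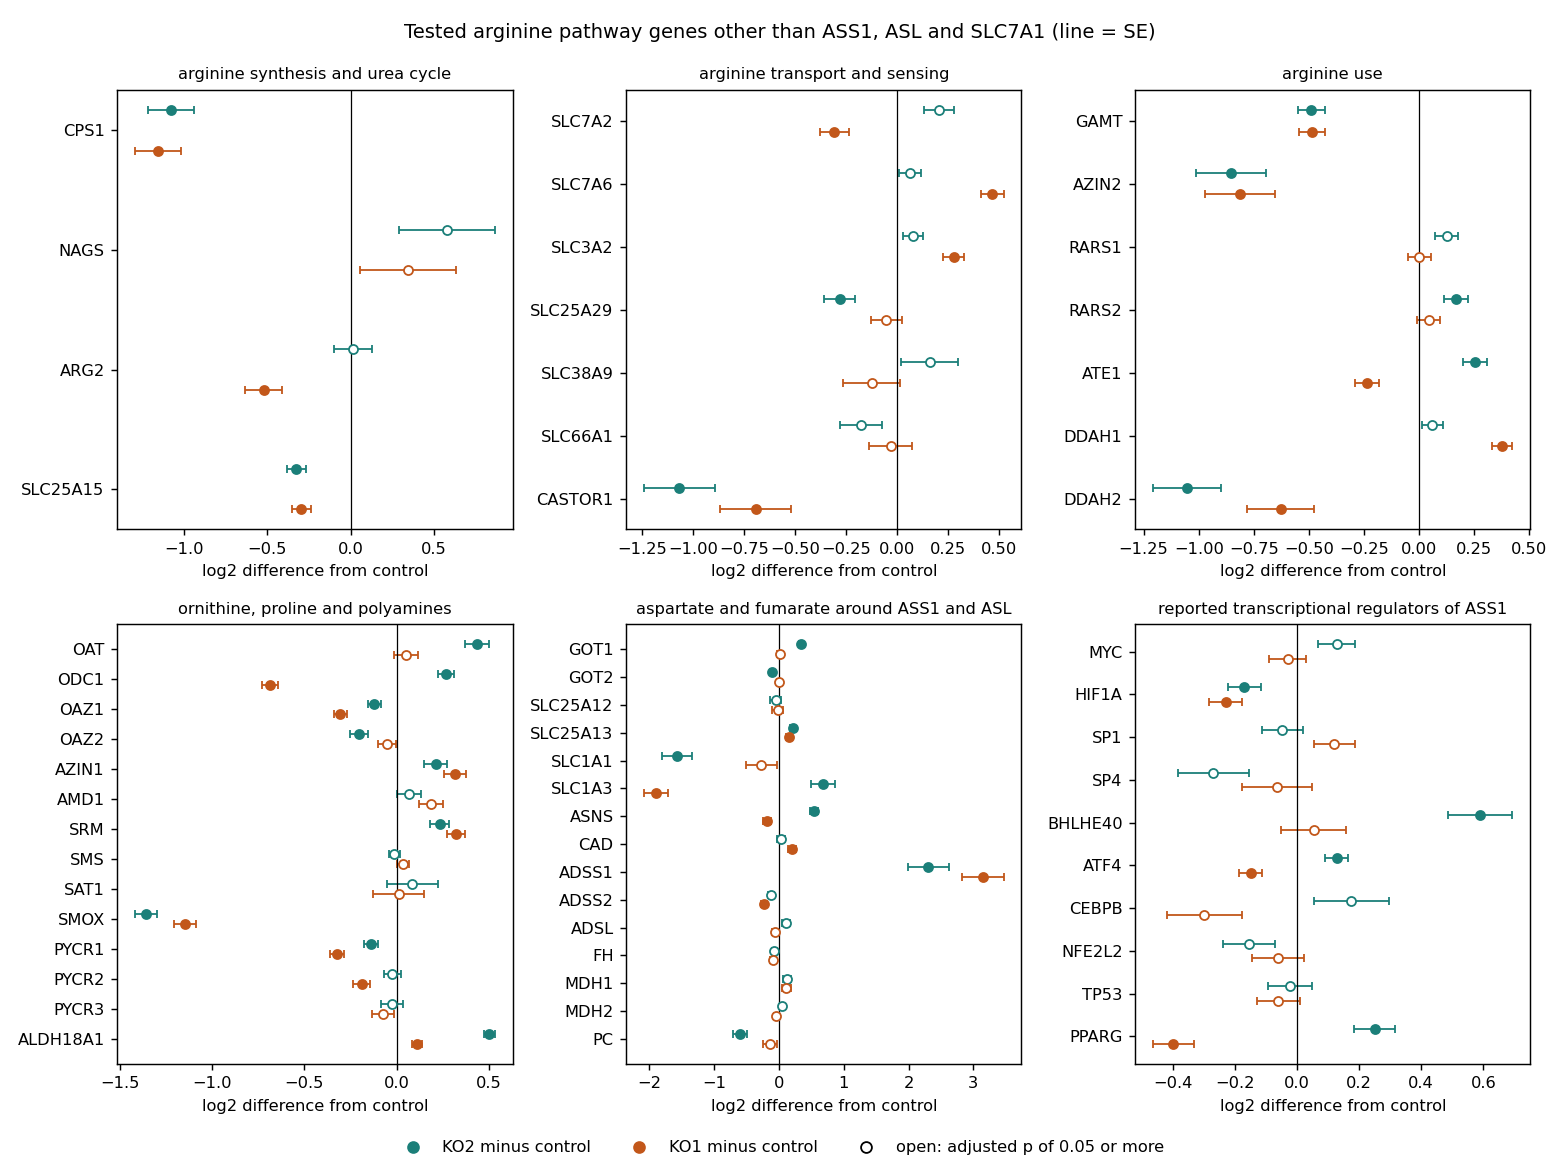
Log2 difference from control of each tested list gene, with KO2 and KO1 as separate symbols, lines as the standard error and open symbols for a limma adjusted p of 0.05 or more. SMOX, CPS1 and CASTOR1 are low in both clones, ADSS1 is high in both, and ODC1, SLC1A3 and ASNS lie on opposite sides of 0.

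The genes next to ASS1 on chromosome 9 did not show a difference of its size. Its 5 tested neighbours on each side, between 129827290 and 131234663 of chromosome 9, ranged in log2 difference from -0.74 to 0.38 in KO2 and from -0.86 to 0.55 in KO1. NUP214, a nuclear pore gene, had the highest value in each clone, and AIF1L, an actin-binding protein gene, the lowest. Of the 10 neighbours, 3 rose and 1 fell in KO2, and 4 rose and 1 fell in KO1, near the 30.4% and 34.3% of all tested genes that were called. C9orf78 and NUP214 rose in both clones, FUBP3 in KO2, and FNBP1 and EXOSC2 in KO1. The 10 neighbours of ASL ranged from -0.47 to 0.39 in KO2 and from -0.49 to 0.43 in KO1. They include ENSG00000249319, which overlaps ASL on the same strand and may not be independent of it. TPST1 fell in KO2 and LINC03011 in KO1. That is 1 of 10 in each clone, where 14.8% of all tested genes fell in KO2 and 14.1% in KO1.

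Around SLC7A1, on chromosome 13 between 27620742 and 31162388, the neighbours ranged from -1.19 to 0.09 in KO2 and from -0.26 to 0.25 in KO1. PAN3-AS1, SLC46A3 and HSPH1 fell in KO2, and UBL3 fell in KO1. These are 3 and 1 of 10, where 14.8% and 14.1% of all tested genes fell. The counts of called neighbours of ASL and SLC7A1 lay between 0 and 3 with each library left out in turn. No neighbour of SLC7A1 rose against control, where 15.6% of all tested genes rose in KO2 and 20.2% in KO1.

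**Figure D4:**
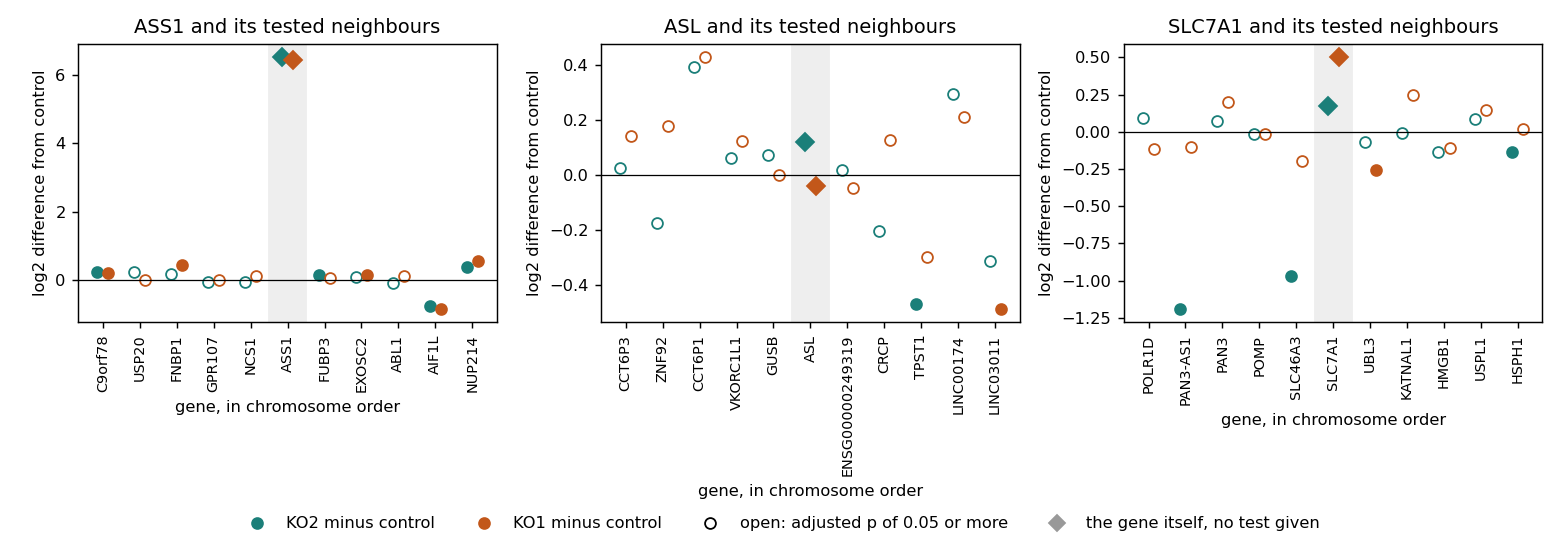
Log2 difference from control of the 5 tested genes on each side of ASS1, ASL and SLC7A1 in chromosome order, KO2 and KO1 as separate symbols; filled circles passed a limma adjusted p of 0.05, open ones did not, and the diamonds in the grey band are the 3 genes themselves, for which no test against control is given. ASS1 stands at 6.53 in KO2 and 6.43 in KO1, while its neighbours lie between -0.86 and 0.55.

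The 5 tested genes nearest to ASS1 in pattern over the 9 libraries were taken. Nearness was the root mean square difference of their log2 changes from the control mean. The number is set by this rule and does not show how many genes share the pattern. The nearest was LINC02953 on chromosome 11 (0.98), with 81 reads in KO2, 195 reads in KO1 and 2 reads in control. CYP2R1, a vitamin D 25-hydroxylase gene on chromosome 11 (1.05), had 74 reads in KO2, 79 reads in KO1 and 0 reads in control. ZNF415, a zinc finger gene on chromosome 19 (1.08), had 61 reads in KO2, 53 reads in KO1 and 0 reads in control. ENSG00000263637 (0.98) and ENSG00000268119 (1.10) completed the nearest 5. None of these lies on the chromosome of ASS1. CYP2R1 and ZNF415, at 0.0216 and 0.0258 TPM on average in control, met the filter of 1 TPM only through the clones. With so few control reads, the log2 changes of these genes depend on the small prior count, as for ASS1.

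The genes nearest to SLC7A1 in pattern were closer to it. LARP1, an RNA-binding protein gene, differed by 0.04, at 191 TPM in KO2, 250.9 TPM in KO1 and 171 TPM in control. ATP13A2, a lysosomal polyamine exporter gene, averaged 114 TPM in KO2, 145 TPM in KO1 and 102 TPM in control. DST, a cytoskeletal linker gene, and HERC1, a ubiquitin ligase gene, were also near, with differences of 0.04 and 0.05. ASL was nearest to DPH7 (0.03), RTEL1-TNFRSF6B, TTLL12, POLD1 and NOC2L, whose log2 differences from control ranged from -0.06 to 0.14.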

How the data were processed

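Input mRNA of 9 libraries was measured by RNA-seq. Total RNA was extracted with Trizol, then mRNA was purified on beads and a directional library kit was used, per the labels' protocols. The submitters' processing notes name genome build hg38 and the tools edgeR 3.12.1, featureCounts, HISAT2 2.0.4, R 3.3.3, SAMtools 1.7 and deepTools 3.0.2, with no role for each. The annotation and the strand setting were not stated. The authors deposited log2 TPM values of 15258 genes. On the linear scale all columns have the same sum, so the scaling was over the genes listed, and a small prior had been added before the logarithm.

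Reads per gene were recovered as whole numbers (100% of genes, to within 1e-06 reads) and came to 7848089 to 11393206 per library, 84602764 in all. A limit of 3 reads is 0.263 to 0.382 CPM. Read-rate ratios have exact 95% counting intervals, which cover counting error only. Columns of per-sample values that were not used numbered 0. GENCODE 44 matched 15138 identifiers, leaving 120 unmatched. Promoters were taken from RefSeq.

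limma-trend (limma 3.58.1, R 4.3.3) was fitted to the deposited log2 values with 1 mean per line, leaving 6 residual degrees of freedom. P-values were two-sided, were adjusted by Benjamini-Hochberg over the 14512 genes that averaged 1 TPM or more, and were called under 0.05. The fit was tested on simulated data. Per list, up to 4 genes with the largest change were named, those called in both clones first. One gene near SLC7A1 in pattern is not reported here. The 3 genes and the lists were chosen with earlier results of these data known. Alternatives were pseudocounts of 1 and 5, no filter, a filter of 5 TPM, no variance trend, quantile normalization, median centring, only the compared lines, a block on the replicate letter, and each library left out. limma-voom on the recovered reads and a subtracted length trend were chosen after seeing the data.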

Additional observations from a re-analysis of the deposited data

Results flagged for a closer look

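Differences between the clones, tested as KO2 minus KO1 with limma, passed the adjusted threshold for 16 of 29 genes. These are the 3 of arginine supply and the named list genes, where 28.7% of all tested genes passed. Most of the named list genes were picked for a call against control in these same libraries. Their share therefore cannot be compared with that of all tested genes. Each difference between the clones sets KO2 against KO1, so the control libraries enter its error but not its size. Among the genes of supply and transport, the log2 differences were 0.16 for ASL, -0.33 for SLC7A1, 0.51 for SLC7A2, -0.41 for SLC7A6, -0.20 for SLC3A2 and -0.23 for SLC25A29. The call of ASL was lost on leaving out any 1 of 7 of the 9 libraries. That of SLC25A29 was lost on leaving out any of the 9, with no filter, median centring, quantile normalization, only the compared lines, the replicate block, limma-voom or the length trend subtracted.

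Among genes that use arginine, they were 0.54 for ARG2 and 0.49 for ATE1. For genes of ornithine, proline and polyamines, they were -0.21 for SMOX, 0.39 for ALDH18A1 and 0.95 for ODC1. Among genes of aspartate and the regulators, they were 2.57 for SLC1A3, 0.72 for ASNS, 0.65 for PPARG, 0.28 for ATF4 and 0.54 for BHLHE40. SLC1A3 had the largest difference of those listed, with 6.61 TPM on average in KO2 against 1.12 TPM in KO1.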

How the results depend on the processing

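Of the members' values and the list totals, recomputed under every alternative, 282 stayed alike, 10 lost their call and 8 moved. Many could not change, since leaving out a library of a line outside the comparison returns the same difference. The members' differences from control have no call to lose. A shift such as that of ASS1 without control A, given below, was still counted as alike. Of the values of other named genes and the counts per list or neighbourhood, 2198 stayed alike, 67 lost and 2 gained a call, 121 moved and 5 reversed. With log2(TPM + 1) and log2(TPM + 5), the ASS1 difference was 3.59 and 1.86 for KO2 against control and 3.49 and 1.78 for KO1 against control, since a larger pseudocount compresses low levels by construction. Without control C it was 7.59 and 7.48, and without control A 5.41 and 5.30. The ASL difference between KO2 and KO1 was 0.16 but lost its call without a variance trend, with only the compared lines and with the replicate block, and ranged from 0.13 to 0.21 with each library left out. For SLC7A1, KO1 minus control was 0.45 by limma-voom and 0.44 with the length trend subtracted. The count of list genes lower in KO2 than in KO1 was 5 after median centring and 4 to 8 with each library left out. ARG2 in KO2, which was not called, reversed to a log2 difference of -0.0043 with the length trend subtracted and ranged from -0.068 to 0.11 with each library left out, and BHLHE40 in KO1, also not called, from -0.025 to 0.12. The cause of these changes was not tested. Deviations of same-lettered libraries of different lines had correlations from -0.128 to 0.035, and those of differently lettered ones from -0.19 to 0.206. No shared deviation by letter was seen, which does not settle whether the letters pair the libraries. The block ended the calls of ASL and SLC25A29 between the clones and of ASNS in KO1. With 6 ASS1 reads in control, depth limits the size of that difference.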
